A study of Mus musculus with 8 samples.

Results

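The genes described here encode the constitutive proteasome, the form whose subunits cells make without needing an interferon signal. They were taken as every gene on the array whose symbol begins with Psma, Psmb, Psmc or Psmd followed by a number, leaving out the immunoproteasome subunits Psmb8, Psmb9 and Psmb10. This gave 33 of the 16593 named genes on the array: 3 of the catalytic core, 11 of the rest of the core and 19 of the regulatory particle. The last count includes Psmd5, Psmd9 and Psmd10, which encode assembly chaperones of the particle and not subunits. Psmb11, Psma8 and Psmd3 fit the same pattern of symbols and were not analysed here, because no probe carried their name. Each gene is represented by its brightest probe over the 8 arrays, and 13 of the 33 genes have more than 1 probe.

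L929 is an established line of mouse fibroblasts. Its derivative L929IRF8 makes IRF8, an interferon regulatory factor normally found in immune cells, from an added gene, and total RNA of both was measured on Illumina bead arrays. Each line was left unstimulated or was given interferon beta (IFNβ) at 1000 U/ml for 4 h, which makes 4 groups with 2 arrays each: L929 untreated, L929 IFNβ, L929IRF8 untreated and L929IRF8 IFNβ. The series' design text calls the replicates independent. The labels do not describe the construct, name an empty-vector control or say whether L929IRF8 is a clone, so effects of IRF8 and of any other difference between these lines cannot be told apart.

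The proteasome degrades proteins that carry a chain of ubiquitin. Its core is a barrel of stacked rings: alpha subunits (Psma) form the outer rings and gate the entrance, and beta subunits (Psmb) form the inner rings, where Psmb5, Psmb6 and Psmb7 hold the chymotrypsin-like, caspase-like and trypsin-like active sites. The regulatory particle caps the core; its ATPases (Psmc) unfold substrates, and its other subunits (Psmd) bind ubiquitin chains and remove them. Interferons induce Psmb8, Psmb9 and Psmb10, which replace Psmb5, Psmb6 and Psmb7 in newly built cores and change the peptides that are made for MHC class I.

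The lowest deposited intensity lies 23.7 units below 0, and that size was taken as the background bound. Of the 33 genes, 31 exceeded the bound in their mean over the arrays, and medians and counts below refer to these 31 unless all 33 are named. Psma1 and Psma6, which encode alpha subunits, read between -11.4 and 3.4 units on every array. Their probes were not above background, which gives a bound and no level for either gene. Apart from the following uses, intensities of different probes were not set against each other. They served to pick the brightest probe of a gene and to describe how bright sets of genes were. Intensities of cell type markers were summed, and differences were taken between each constitutive catalytic gene and its interferon-induced counterpart. Changes are on the scale log2(intensity + 16) and come from limma fitted to all 8 arrays, with Benjamini-Hochberg adjusted p-values over all 25697 probes and a threshold of 0.05. A group of 2 arrays against 2 cannot give an exact permutation p under 0.333.

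The treatment was visible on every array. Rsad2, an antiviral enzyme, was at least 741-fold higher after IFNβ in L929 and at least 352-fold higher in L929IRF8 (limma adjusted p = 0.00131 and 0.00193). The 1 probe of Irf8 read between -2.3 and 7.8 on all arrays, so it neither shows nor excludes the ectopic gene. Fibroblast markers were above background for 9 of the 10 genes measured, and Thy1 was not; their summed intensity was 28086 to 33045 over the arrays, and 1 of them, Pdgfra, fell after IFNβ in L929IRF8 (limma adjusted p = 0.0239). Of 15 markers of myeloid, lymphoid, epithelial and endothelial cells, 3 exceeded the bound (Cd14, Lyz2 and Kdr), with a summed intensity of 190.1 to 286.3 per array over all 15, and the pan-leukocyte gene Ptprc lay below it on every array.

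After IFNβ, none of the constitutive proteasome genes passed the test in either line. In L929, 0 of 33 were called, against 1.28% of all probes. Of all 7692 genes above background, 163 were called higher and 37 lower. An unadjusted p under 0.05 in limma was found for 0 of the 31 genes, against 16.3% of all genes above background. In L929IRF8 it was again 0 of 33, against 1.07% of all probes, with 130 of the 7692 genes called higher and 31 lower. There 0 of the 31 had an unadjusted p under 0.05, against 16.1%. At shares of calls this low, 0 of 33 called is near the background. The median log2 change was -0.05 in L929 and -0.03 in L929IRF8, beside -0.08 in each line over the 7692 genes above background. The changes ran from -0.48 to 0.17 in L929 and from -0.19 to 0.33 in L929IRF8.

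How narrow these estimates are can be read from their intervals. In L929, the 95% interval of the change lay within 1.5-fold in both directions for 25 of the 31 genes (80.6%), and for 41.3% of all genes above background. In L929IRF8 it did so for 22 genes (71.0%), and for 41.4% of all genes. The probes of the 31 genes were the brighter set, with a median mean intensity of 3492 units against 371.9 over all genes above background. No comparison at like brightness was made, so shares and spreads set beside those of all genes, here and below, are not matched for it. In L929, the intervals of 2 genes reached beyond 2-fold, those of Psmc6 (0.306 to 1.68-fold) and Psmd5 (0.5 to 1.5-fold), and in L929IRF8 that of Psmc6 did (0.529 to 2.90-fold). With the median standard error (SE) of the 31 genes, a change would have had to reach 2.41-fold in L929 and 2.49-fold in L929IRF8 to be as extreme as the last probe called.

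**Figure D1:**
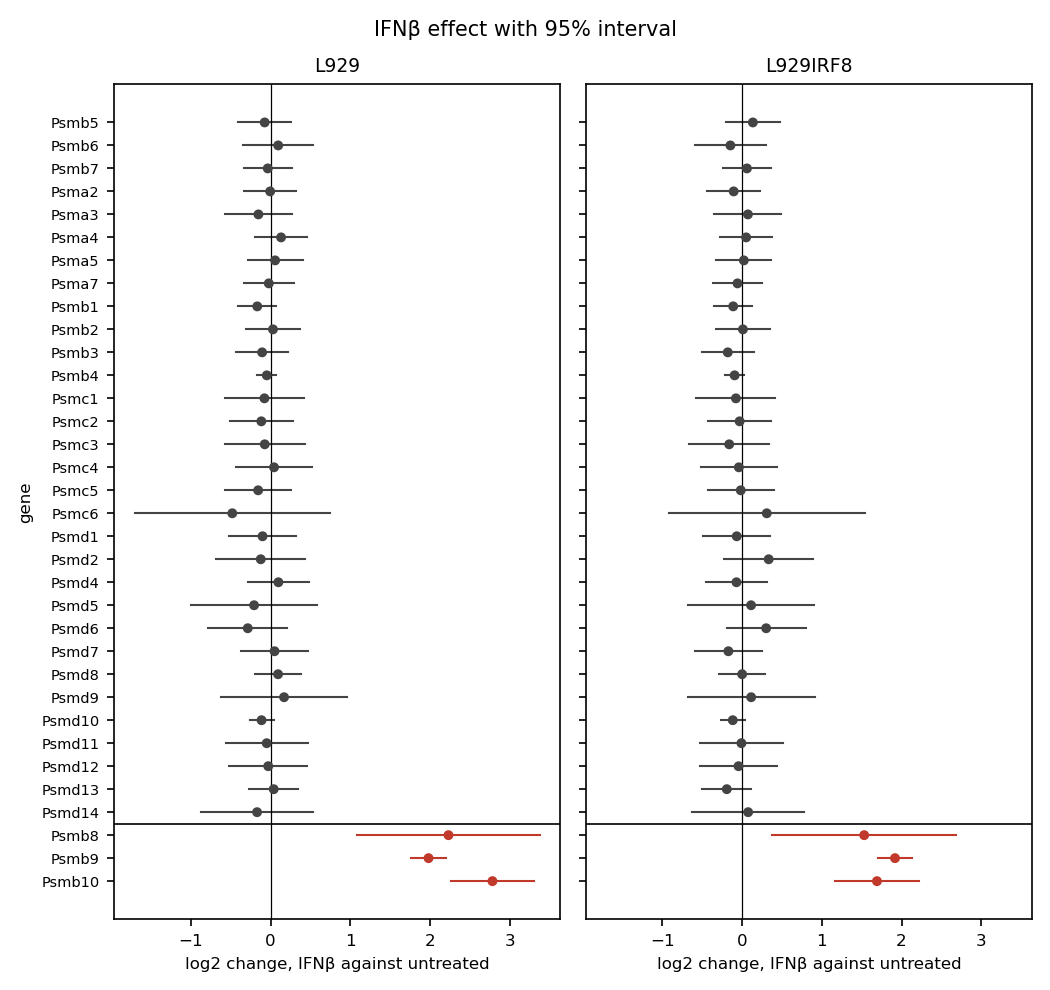
Log2 change after IFNβ in L929 (left) and L929IRF8 (right), from limma, with 95% intervals as bars, for the 31 constitutive proteasome genes above background (grey) and the 3 immunoproteasome genes (red). The grey points lie between -0.48 and 0.33 with intervals that include 0, and the red points lie between 1.53 and 2.78.

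The 3 catalytic subunits stayed within their replicate spread. Psmb5, the chymotrypsin-like subunit, read 447.7 and 516.9 units on the untreated L929 arrays and 434.7 and 478.3 after IFNβ, and 399.6 and 436.9 on the untreated L929IRF8 arrays and 416.9 and 507.7 after IFNβ. The arrays of treated and untreated cells overlapped in both lines, with log2 changes of -0.07 ± 0.13 (SE; limma adjusted p = 1) in L929 and 0.13 ± 0.13 (limma adjusted p = 0.852) in L929IRF8.

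Psmb6, the caspase-like subunit, read 3493 and 3913 on the untreated and 3454 and 4515 on the treated L929 arrays, and 4027 and 4278 on the untreated and 3395 and 4133 on the treated L929IRF8 arrays. In L929 the treated arrays lay on both sides of the untreated ones, with a log2 change of 0.09 ± 0.17 (limma adjusted p = 1). In L929IRF8 the change was -0.15 ± 0.17 (limma adjusted p = 0.9), with overlapping arrays.

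Psmb7, the trypsin-like subunit, read 6885 and 8015 on the untreated and 7009 and 7487 on the treated L929 arrays, and 6105 and 7078 on the untreated and 6524 and 7199 on the treated L929IRF8 arrays. Its log2 changes were -0.04 ± 0.12 in L929 and 0.06 ± 0.12 in L929IRF8 (limma adjusted p = 1 for each). The other 2 Psmb7 probes gave -0.02 and 0.15 in L929 and -0.19 and -0.23 in L929IRF8, so the sign of its change depended on the probe.

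Of the interferon-induced counterparts, Psmb9 and Psmb10 rose in the same RNA and Psmb8 did not pass. Psmb10, which takes the place of Psmb7, was 7.07-fold higher after IFNβ in L929 and 3.28-fold higher in L929IRF8 (limma adjusted p = 0.0105 and 0.0487). Psmb9, which takes the place of Psmb6, was at least 5.47-fold higher in L929, where its untreated arrays lay under the bound, and 5.40-fold higher in L929IRF8 (limma adjusted p = 0.00227 and 0.00306). Psmb8, which takes the place of Psmb5, read 108.0 and 57.5 untreated and 605.2 and 307.6 after IFNβ in L929, and 168.8 and 115.4 untreated and 487.2 and 387.2 after IFNβ in L929IRF8. Its treated arrays were all above its untreated ones, without passing (limma adjusted p = 0.163 and 0.341).

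The difference between the members of a pair was tested itself. On each array the log2 value of the constitutive gene was taken from that of its counterpart, and this difference was compared between the 4 treated and the 4 untreated arrays of both lines together. It was 1.85 higher after IFNβ for Psmb8 over Psmb5, 1.98 higher for Psmb9 over Psmb6 and 2.23 higher for Psmb10 over Psmb7. In each pair all 4 treated arrays lay above all 4 untreated ones (exact permutation test, two-sided p = 0.0286, the smallest that 4 against 4 arrays can give, and the same after Benjamini-Hochberg adjustment over the 3 pairs). This test exchanges arrays across lines and replicate numbers. Exchanging treatment labels only within a line and number, tried after the data were seen, allows 16 arrangements and gave an exact p of 0.125, the smallest it can give. For Psmb9 the untreated L929 values lie under the bound. The pairs were chosen with the rise of the immunoproteasome genes known. For each counterpart alone, all 4 treated arrays already lay above all 4 untreated ones, so the test largely restates that rise.

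**Figure D2:**
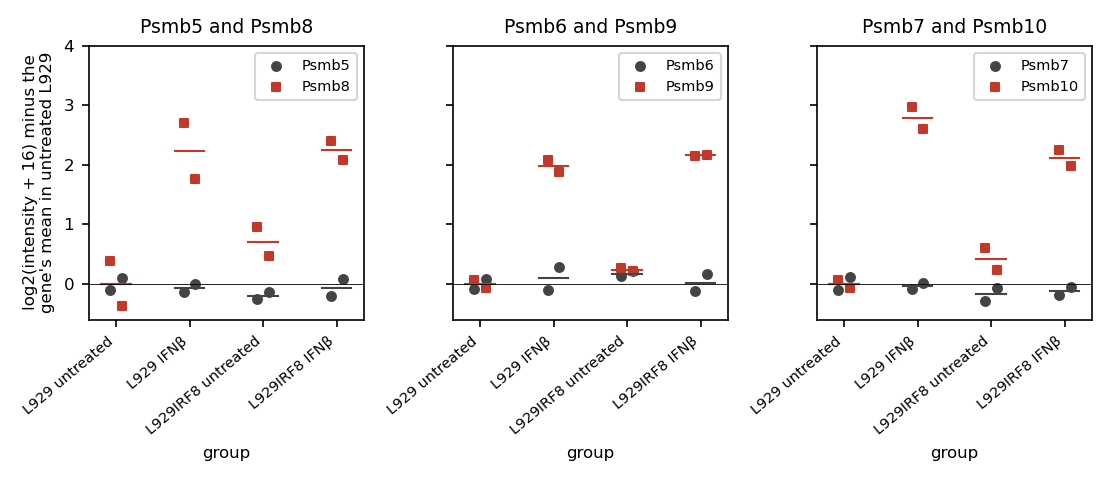
Log2(intensity + 16) on each array minus the mean of that gene in untreated L929, by group, for the 3 constitutive catalytic subunits (grey circles) and their interferon-induced counterparts (red squares); horizontal lines are means of the 2 arrays. The counterparts stand above their untreated values after IFNβ in both lines, while the constitutive subunits stay close to 0.

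Among the other core subunits, the changes ran from -0.17 to 0.13 in L929 and from -0.18 to 0.07 in L929IRF8, with medians of -0.02 and -0.06 over the 9 genes above background. Every one of the 9 intervals lay within 1.5-fold in both lines. Psma5, an alpha subunit, read 21022 and 24270 untreated and 22479 and 24552 after IFNβ in L929, a log2 change of 0.06 ± 0.13. Psmb4, a beta subunit without an active site, had the smallest spread of the 31 genes, with a coefficient of variation of 3.78% over the 8 arrays and values from 9700 to 11031. Psmb4 changed by -0.05 ± 0.05 in L929 and -0.09 ± 0.05 in L929IRF8 (limma adjusted p = 0.876 and 0.678).

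The lowest change of these genes in L929 was that of Psmb1, a beta subunit without an active site, at -0.17 ± 0.09 with both treated arrays lower (limma adjusted p = 0.768). In L929IRF8 it changed by -0.11 ± 0.09 with overlapping arrays (limma adjusted p = 0.812), and its intensities are given with the line comparison. Psma4, an alpha subunit, had the highest change in L929. It read 5814 and 5940 untreated and 6017 and 6885 after IFNβ in L929, the 1 gene of the 31 whose treated L929 arrays were both higher (log2 change 0.13 ± 0.12, limma adjusted p = 0.872). In L929IRF8 its arrays overlapped, at 5356 and 6587 untreated and 5904 and 6406 after IFNβ. Psmb3, a beta subunit without an active site, read 8062 and 8303 untreated and 6686 and 7793 after IFNβ in L929IRF8, a log2 change of -0.18 ± 0.12 (limma adjusted p = 0.788).

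In the regulatory particle the changes spread more widely, from -0.48 to 0.17 in L929 and from -0.19 to 0.33 in L929IRF8 over 19 genes. Both ends in L929 and the upper end in L929IRF8 came from dim probes. These were Psmc6, Psmd9 and Psmd2, with means of 44.9, 156.4 and 337.8 units over the 8 arrays. The other core genes above background averaged 4079 units or more, so the wider spread is not matched for brightness. Psmc6, an ATPase that helps to unfold substrates, read 52.3 and 61.4 untreated and 37.3 and 34.9 after IFNβ in L929 (log2 change -0.48 ± 0.47, limma adjusted p = 0.878). In L929IRF8 it read 16.8 and 60.4 untreated and 32.3 and 63.6 after IFNβ, with a change of 0.31 ± 0.47 (limma adjusted p = 0.971) and 1 array under the background bound. Without the first untreated L929IRF8 array the latter change became -0.30, so its direction rested on that array.

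Psmd6, a lid subunit, read 156.3 and 188.3 untreated and 112.8 and 167.6 after IFNβ in L929, a log2 change of -0.29 ± 0.19 (limma adjusted p = 0.798). In L929IRF8 it read 111.8 and 118.9 untreated and 143.3 and 148.3 after IFNβ, a change of 0.30 ± 0.19 (limma adjusted p = 0.788) in which the treated arrays were both higher. A second Psmd6 probe read 33.4 and 43.1 untreated and 23.3 and 30.7 after IFNβ in L929IRF8, with 1 treated array under the bound, and both of its treated L929 arrays were under the bound, so it gives no level there.

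Psmd2, a large scaffold subunit of the base, read 323.5 and 368.2 untreated and 304.9 and 326.3 after IFNβ in L929 (log2 change -0.12 ± 0.21). In L929IRF8 it read 242.3 and 371.0 untreated and 354.6 and 411.8 after IFNβ, with overlapping arrays and the highest change of the 31 genes in that line, 0.33 ± 0.21 (limma adjusted p = 0.788). The change was 0.04 without the first untreated L929IRF8 array and 0.62 without the second. The second Psmd2 probe gave values on the same side, -0.11 and 0.44. Psmd13, a lid subunit, had the lowest change in L929IRF8, from 5731 and 6343 untreated to 4962 and 5606 after IFNβ (-0.19 ± 0.12, limma adjusted p = 0.788), and its change was 0.04 in L929. Psmd7, which pairs with the deubiquitinase Psmd14 in the lid, was next to Psmb3 in L929IRF8 with -0.17 ± 0.16.

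Psmd5, Psmd9 and Psmd10 encode chaperones that help to assemble the ATPase ring and leave the finished particle. Psmd5 read 868.3 and 847.6 untreated and 701.4 and 782.1 after IFNβ in L929, a log2 change of -0.21 ± 0.30 (limma adjusted p = 0.981). In L929IRF8 its arrays ranged from 558.7 to 996.6 and overlapped. Psmd9 had the highest value of the 31 genes in L929, 0.17 ± 0.30, but its treated arrays there read 114.4 and 215.6, on both sides of the untreated 141.3 and 136.0, and without the second treated array the change was -0.25.

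Counting genes whose arrays do not overlap between treated and untreated cells gave few. In L929, 1 of the 31 genes was higher on both treated arrays (3.23%, against 13.9% of all genes above background) and 7 were lower (22.6%, against 29.1%). In L929IRF8, 1 was higher (3.23%, against 12.4%) and 4 were lower (12.9%, against 26.7%). Lower arrays were thus the more frequent kind among these genes and among all genes, and the shares of the 31 genes were the smaller in each case. The sign of the change was the same under both replicate numbers for 19 of the 31 genes in L929 and 16 in L929IRF8. This was not counted over all genes, so it gives no measure of consistency.

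A comparison added after the data were seen averaged the IFNβ effects of the lines, which sets 4 arrays against 4 and narrows the intervals. It called 2.21% of all probes and 0 of the 33 genes by limma, with 1 of the 31 (3.23%) at an unadjusted p under 0.05, against 22.5% of all genes above background. The median change was -0.04, the range was -0.14 to 0.14, and 28 intervals (90.3%) lay within 1.5-fold, against 61.4% for all genes above background. With the median SE a 1.73-fold change would have been as extreme as the last probe called. Of the 31 genes, 0 had all treated arrays above all untreated ones (5.92% of all genes above background did) and 1 had all treated arrays below (3.23%, against 10.5%).

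That gene was Psmd10, an assembly chaperone also known as gankyrin. It read 1088 and 1064 untreated and 945.5 and 1043 after IFNβ in L929, and 1131 and 1100 untreated and 1001 and 1053 after IFNβ in L929IRF8. All 4 treated arrays were lower, by a log2 change of -0.12 ± 0.04 that did not pass (limma adjusted p = 0.341, unadjusted p = 0.0384). The other 2 Psmd10 probes did not share it in both lines: they changed by -0.10 and 0.16 in L929 and by 0.01 and 0.05 in L929IRF8.

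Short stretches of promoter sequence are shown because interferon-induced genes carry known letters there, and some of these genes carry them too. RefSeq promoter windows of GRCm38.p6, from 250 bases before the start of a gene up to the start, were available for 28 of the 33 genes. Both strands were searched for GAAA, any 2 bases and GAAA again, the core of the interferon-stimulated response element (ISRE) that ISGF3 and IRF proteins bind. It stood in 2.98% of all 32851 windows. It was in the windows of 3 of the 28 genes (10.7%), Psmb3, Psmd4 and Psmd9, and in those of Rsad2, Isg15 and Ifit3, the 3 genes of the treatment check with a window. It was in 0 of the 3 immunoproteasome windows, Psmb9 and Psmb10 included, and in 0 of the 2 activator genes with a window. The 28 genes hold 30 windows. Here and for the motifs below, their share counts genes and the share of all counts windows, so the 2 shares are not in like units. The stretches below run 5′ to 3′ along the gene's own strand, with the match, or its reverse complement, in capitals.
Psmb3: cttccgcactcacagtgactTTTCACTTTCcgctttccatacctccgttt
Psmd4: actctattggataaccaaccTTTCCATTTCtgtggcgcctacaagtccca
Psmd9: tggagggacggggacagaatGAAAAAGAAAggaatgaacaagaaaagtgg
Rsad2: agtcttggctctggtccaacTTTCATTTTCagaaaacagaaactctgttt
Isg15: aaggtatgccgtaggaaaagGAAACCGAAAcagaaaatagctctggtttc
Ifit3: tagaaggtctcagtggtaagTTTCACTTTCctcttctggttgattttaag

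The Psmb3 stretch lies at chr11:97703251-97703300 on the plus strand, with its match 163 to 154 bases before the start of the gene. The Psmd4 stretch lies at chr3:95042665-95042714 on the minus strand (match 80 to 71 bases before the start) and the Psmd9 stretch at chr5:123228011-123228060 on the plus strand (159 to 150). The induced genes are on the minus strand at chr12:26456543-26456592 (Rsad2, 120 to 111) and chr4:156200861-156200910 (Isg15, 72 to 63), and on the plus strand at chr19:34583353-34583402 (Ifit3, 156 to 147). Isg15 holds 3 overlapping matches and Ifit3 holds 2, of which 1 each is shown.

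Beside these letters stand the changes given above. Psmb3 changed by -0.11 ± 0.12 in L929 and -0.18 ± 0.12 in L929IRF8. Psmd4, a receptor for ubiquitin chains, read 4201 and 4682 untreated and 4494 and 5012 after IFNβ in L929, and 4799 and 5106 untreated and 4147 and 5349 after IFNβ in L929IRF8, changes of 0.10 ± 0.14 and -0.07 ± 0.14. Psmd9 changed by 0.17 ± 0.30 and 0.11 ± 0.30. None of the 3 genes passed in either line. Rsad2, Isg15 and Ifit3 passed with the letters, and Psmb9 and Psmb10 passed without them. A match of letters is a description, not a binding site.

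The STAT motif TTCNNNGAA (GAS), which is the same read on either strand, was in 7.02% of all windows, in 0 of the 28 genes and in the window of Psmb8, the one of the 3 immunoproteasome genes to hold it. The core of the antioxidant response element (ARE), TGACNNNGC, which Nfe2l1 and Nfe2l2 bind with a small Maf partner, was in 10.2% of all windows and in those of 5 of the 28 genes (17.9%): Psmb5, Psmb6, Psmc6, Psmd9 and Psmd12. Nfe2l1 is the factor that raises proteasome genes when proteasome activity is blocked. The GAS stretch of Psmb8 and the ARE stretches of the catalytic subunits are shown with the matches in capitals.
Psmb8: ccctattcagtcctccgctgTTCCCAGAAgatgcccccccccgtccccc
Psmb5: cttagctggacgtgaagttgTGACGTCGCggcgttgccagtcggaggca
Psmb6: cagaggcggactaaagagagTGACGGAGC
They lie at chr17:34198078-34198126 on the plus strand (Psmb8, match 97 to 89 bases before the start), chr14:54618014-54618062 on the minus strand (Psmb5, 47 to 39) and chr11:70525328-70525356 on the plus strand (Psmb6, 9 to 1).

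The question of the series title, L929 against L929IRF8, was asked of untreated and of treated cells. In untreated cells limma called 4 probes in all (0.0156%) and 0 of the 33 genes, and 2 of the 31 (6.45%), Psmd6 and Psmb1, had an unadjusted p under 0.05, against 6.4% of all genes above background. With the replicate number as a block the count was 8 of 31. The share of all genes was not computed for that fit, so this count has no background to be read against. The median difference of L929IRF8 from L929 was -0.01, beside 0.01 over all genes above background, and single genes ran from -0.54 to 0.26. The line comparisons have little power for a call: with the median SE of these genes a difference would have had to be 11.2-fold to be as extreme as the last of the 4 probes called. The intervals are the better guide, and 19 of 31 lay within 1.5-fold (all genes above background: 47.3%).

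Psmd6 read 156.3 and 188.3 in untreated L929 and 111.8 and 118.9 in untreated L929IRF8, lower on both L929IRF8 arrays, a log2 difference of -0.51 ± 0.19 (limma adjusted p = 0.878). After IFNβ its values overlapped and the difference was 0.07. On the second Psmd6 probe the untreated arrays of the lines overlapped, at 29.5 and 55.4 in L929 and 33.4 and 43.1 in L929IRF8. Psmb1 read 5403 and 6029 in untreated L929 and 4901 and 4748 in untreated L929IRF8, a difference of -0.24 ± 0.09 (limma adjusted p = 0.902). After IFNβ it stood at 5017 and 5142 in L929 against 4138 and 4808 in L929IRF8, a difference of -0.19 ± 0.09 (limma adjusted p = 1). All 4 L929IRF8 arrays were thus below all 4 L929 arrays for Psmb1.

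The other differences between untreated lines at either end were smaller or less certain. Psmc6 had the lowest value, -0.54 ± 0.47, which became 0.07 without the first L929IRF8 array. Psma3, an alpha subunit, gave 11833 and 13177 units in untreated L929 against 9305 and 11628 in untreated L929IRF8, lower on both arrays (-0.26 ± 0.16, limma adjusted p = 0.967). Psmd13 was the highest, at 0.26 ± 0.12 with 4590 and 5531 in L929 and 5731 and 6343 in L929IRF8 (limma adjusted p = 0.967), followed by Psmd8, a lid subunit, and Psmb6, both at 0.17. Psmb5 and Psmb7 differed by -0.20 ± 0.13 and -0.18 ± 0.12. The other Psmb7 probes went the opposite way. Their untreated means were 5261 in L929 and 5596 in L929IRF8 on one, and 1318 and 1489 on the other. Of the 31 genes, 6 were higher on both L929IRF8 arrays (19.4%, against 15.6% of all genes above background) and 5 were lower (16.1%, against 14%).

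After IFNβ, limma called 1 probe between the lines (0.00389%) and 0 of the 33 genes. Of the 31 genes, 0 had an unadjusted p under 0.05, near the share of 5.12% of all genes above background. The median difference was -0.01, beside 0.00 over all genes above background, with a range of -0.19 to 0.26, and 24 of the 31 intervals lay within 1.5-fold (all genes above background: 49.5%). Psmd2 and Psmc6 were the highest, at 0.26 ± 0.21 and 0.25 ± 0.47, and Psmd5 followed at 0.12 ± 0.30. Psmb1 was the lowest, ahead of the lid subunits Psmd11 at -0.12 ± 0.20 and Psmd7 at -0.10 ± 0.16. The catalytic subunits Psmb5, Psmb6 and Psmb7 differed by 0.01 ± 0.13, -0.08 ± 0.17 and -0.08 ± 0.12. Arrays without overlap were few: 2 genes were higher in L929IRF8 (6.45%, against 11.9%) and 1 was lower (3.23%, against 13.2%).

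Averaged over both treatments, a comparison that was also added after the data were seen, limma called 1 probe (0.00389%) and 0 of the 33 genes. Of the 31 genes, 1 (3.23%) had an unadjusted p under 0.05, against 7.29% of all genes above background. With the replicate number as a block it was 3 of 31, without a share of all genes to set beside it. The 1 gene in the fit without the block was Psmb1, at -0.21 ± 0.06 (limma adjusted p = 0.685, unadjusted p = 0.0234), which is 0.862-fold with a 95% interval of 0.766 to 0.970. It was the 1 gene of 31 whose arrays of the lines did not overlap (3.23% lower, against 1.01% of all genes above background); 0 were higher, against 1.29%.

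Whether the lines respond differently to IFNβ was asked by the interaction. Limma called 1 probe (0.00389%) and 0 of the 33 genes. An unadjusted p under 0.05 was found for 0 of the 31, near the share of 3.93% of all genes above background. The median interaction was -0.02, beside -0.01 over all genes above background. The highest values belonged to Psmc6 (0.79 ± 0.66), Psmd6 (0.59 ± 0.27) and Psmd2 (0.46 ± 0.30), and the lowest to Psmb6 (-0.24 ± 0.24), Psmd13 (-0.23 ± 0.17) and Psmd7 (-0.22 ± 0.23), each with a limma adjusted p of 1. Leaving out single arrays moved the highest values between 0.18 and 1.4 (Psmc6, with 1 untreated L929IRF8 array under the bound), 0.332 and 0.844 (Psmd6) and 0.165 and 0.748 (Psmd2). Intervals were wider here, and 11 of 31 (35.5%) lay within 1.5-fold, against 27.7% of all genes above background. Within 2-fold lay 25 of 31, and 4895 of the 7692 genes above background. For Psmd6 the interaction was 0.74 under replicate 1 and 0.44 under replicate 2, the same sign in both.

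For these genes the arrays differed most by replicate number. The array numbered 2 was the brighter one for 23 of the 31 genes in untreated L929, 28 in L929 with IFNβ, 28 in untreated L929IRF8 and 30 in L929IRF8 with IFNβ, while over all genes above background the share was 50% to 52.7%. The median log2 difference of array 2 over array 1 was 0.16, 0.14, 0.21 and 0.27 in these groups, beside 0.00 to 0.02 over all genes. For 18 genes (58.1%) array 2 was higher in all 4 groups, and for 0 it was lower in all 4; over all genes above background the shares were 20.6% and 19.1%. These are descriptions of the 8 arrays, with no test. The labels do not say what the number stands for, and its part in the comparisons was not tested beyond the fits with and without it. The SE, intervals and array overlaps given above are without the block, so they include differences between the numbers.

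**Figure D3:**
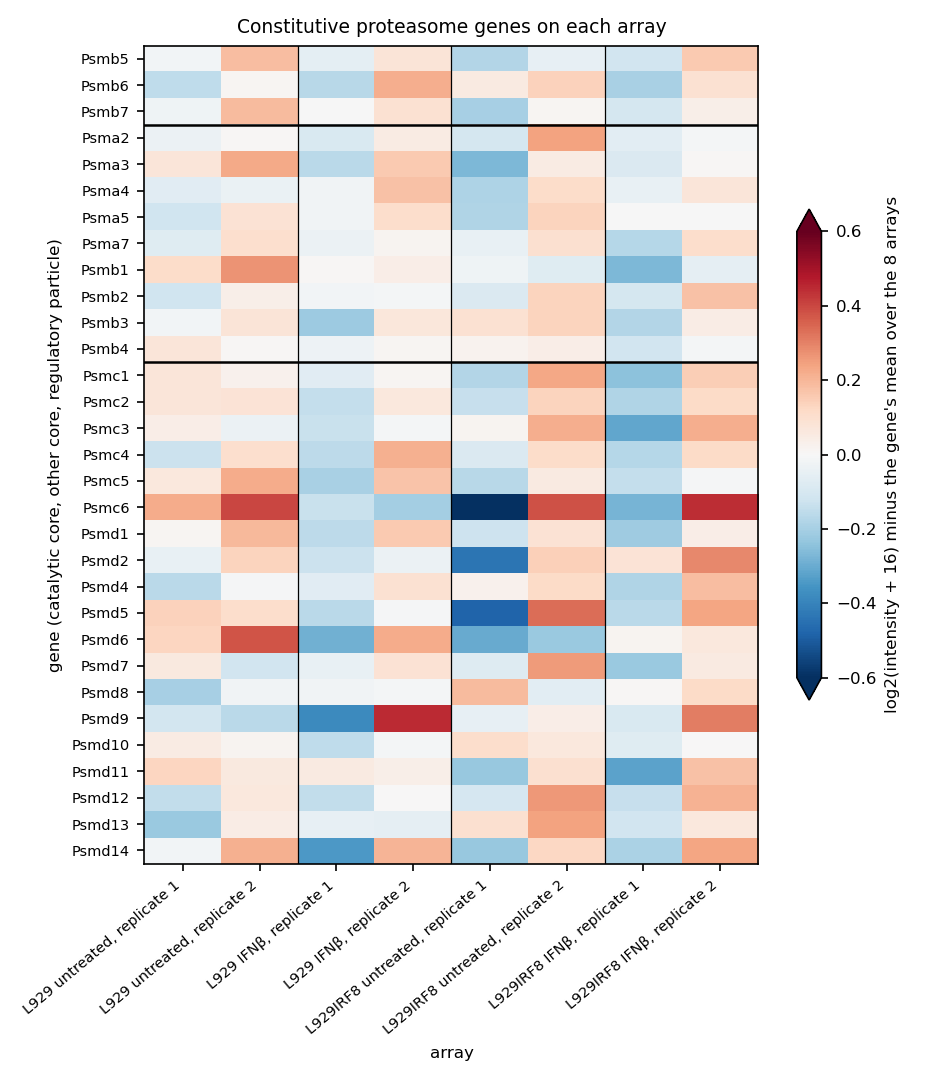
Log2(intensity + 16) of each of the 31 genes on each array minus the gene's mean over the 8 arrays; rows are genes, with lines between catalytic core, other core and regulatory particle, and columns are arrays, with lines between groups. Within each group the array numbered 2 is the redder one for most genes.

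All 3 catalytic subunits were brighter on array 2 in every group, by 0.09 to 0.38 on the log2 scale. The ATPase Psmc4 shows the pattern most plainly: it read 3261 and 3820 in untreated L929, 3199 and 4133 in L929 with IFNβ, 3361 and 3854 in untreated L929IRF8 and 3168 and 3859 in L929IRF8 with IFNβ. All 4 arrays numbered 1 lay below all 4 numbered 2, and the number held 92.1% of its sum of squares. Psmd14, the lid enzyme that cuts ubiquitin chains from substrates, read 1502 and 1767, 1192 and 1754, 1294 and 1660, and 1331 and 1793 in the same order, with 83.0% of its sum of squares in the number. The immunoproteasome genes Psmb8 and Psmb10 stood the other way, lower on array 2 in all 4 groups.

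Dividing each gene's sum of squares over the 8 arrays gave a median share of 49.2% to the replicate number for the 31 genes, 4.83% to IFNβ, 4.64% to the line and 4.68% to the interaction. Over all genes above background the median shares were 19.2%, 17.4%, 5.75% and 3.36%. The replicate number was the largest of the 4 terms for 26 of the 31 genes. IFNβ was largest for Psmb4 and Psmd10, the line for Psmb1 and Psmd8 and the interaction for Psmd6. The whole spread was small: the SD of the log2 values over the 8 arrays had a median of 0.15, against 0.21 over all genes above background, which were dimmer in the median.

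**Figure D4:**
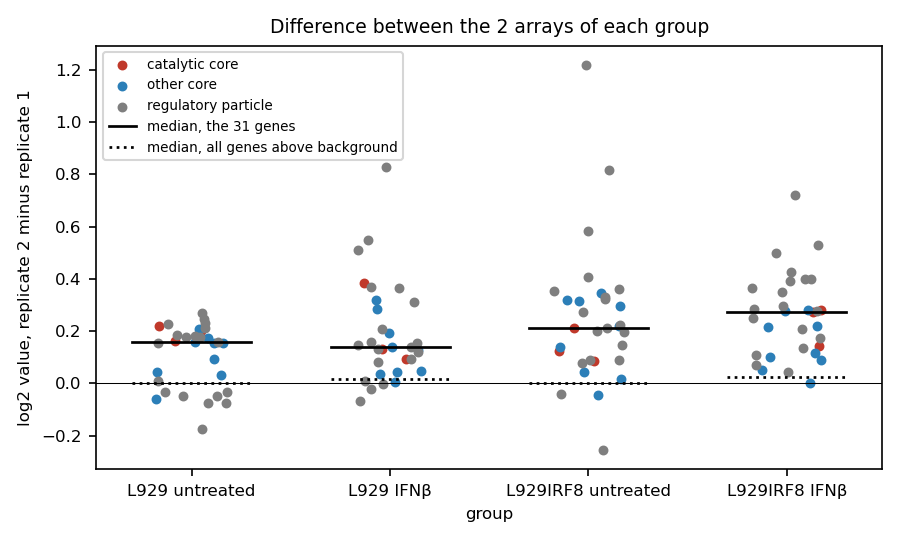
Log2 value on the array numbered 2 minus that on the array numbered 1, for each of the 31 genes (points, coloured by catalytic core, other core or regulatory particle) in each group, with the median of these genes (solid line) and of all genes above background (dotted line). The solid lines lie at 0.14 to 0.27 and the dotted lines at 0.00 to 0.02.

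Other genes of the pathway set these values in context. Of the 4 activator genes, Psme1, a subunit of the interferon-inducible cap of the core, rose 2.66-fold after IFNβ in L929 (limma adjusted p = 0.038) and read 1.91-fold higher in L929IRF8 without passing (limma adjusted p = 0.121). Psme2, its partner, was 1.69-fold and 1.38-fold higher in value and did not pass in either line (limma adjusted p = 0.193 and 0.459), nor did Psme3 and Psme4. Of the 4 core assembly chaperones measured, 0 were called. Pomp, which matures new cores, read 9082 on both untreated and 10722 and 10291 on the treated L929 arrays, a log2 change of 0.21 ± 0.06 (limma adjusted p = 0.311). It was also higher on both untreated L929IRF8 arrays, at 11833 and 10872, than on the untreated L929 arrays, by 0.32 ± 0.06 (limma adjusted p = 0.436). On the treated L929IRF8 arrays Pomp read 10189 and 10909, which overlap those untreated values. The log2 changes of the 4 chaperones after IFNβ were positive for 3 in L929 and for 0 in L929IRF8.

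Of the 9 proteasome-bound factors above background and the 2 subunits of the p97 segregase machinery, 0 were called in either line. The 2 p97 genes were Vcp and its cofactor Nploc4, at -0.06 and -0.30 in L929 and -0.08 and -0.27 in L929IRF8. Ubqln1, a shuttle that brings ubiquitinated proteins to the proteasome, changed by -0.30 ± 0.07 in L929 and -0.22 ± 0.07 in L929IRF8 (limma adjusted p = 0.258 and 0.436). Nfe2l1 read 2775 and 2835 untreated and 2819 and 2545 after IFNβ in L929, a change of -0.07 ± 0.14, and did not pass. Nfe2l2 did not pass either, and of the ubiquitin genes the 1 measured, Uba6, was under the bound.

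Between the probes of one gene the signs of small changes often differed. Of the 11 genes with at least 2 probes above background, 7 had probes that disagreed in sign in L929 and 7 in L929IRF8. In L929 they were Psma7, Psmb7, Psmc5, Psmd7, Psmd9, Psmd10 and Psmd11, and in L929IRF8 they were Psmb2, Psmb7, Psmd6, Psmd7, Psmd10, Psmd11 and Psmd12. Psmd7 changed by 0.05 and -0.15 in L929 and by -0.17 and 0.11 in L929IRF8, on the probe used and on the other.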

How the data were processed

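RNA of 8 samples was labelled with biotin after amplification with an Illumina kit, per the labels. The deposited values are linear probe intensities. How they were made is not given in the sources used here. Since 28.1% to 28.3% of probes per array lie below 0, the deposited intensities appear background-subtracted, and since sorted values differ by at most 1.7 units between arrays they appear quantile normalized. They were not normalized again. Such values cannot show a change shared by most genes, and no detection p-values were used; the number of arrays limits the precision.

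Probes were named from the platform annotation, which gives 23978 of 25697 probes 1 symbol, 0 several and 1719 none; RefSeq holds the Entrez ID of 23962 of them, and 0 symbols changed. The scale was log2(intensity + 16), with negative intensities taken as 0. A linear model with 1 coefficient per group and no block was fitted across all probes with limma 3.58.1 in R 4.3.3 (4 residual degrees of freedom, 0.684 added by eBayes) and tested on simulated data. Intervals are per gene and not adjusted for the number of genes. Folds of Psme, Psmb8 to Psmb10 and the induced genes are ratios of geometric means with values raised to the bound. P-values measure the spread between these arrays.

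Genes named are the catalytic subunits, the 3 highest and 3 lowest changes of each comparison, genes called, genes under the bound and genes whose probes disagree; Psmb4, Psma5, Psmc4, Psmd14, Psmd10 and Psmb1 were singled out after their values were seen. The genes, lists and tests were chosen with earlier results of these data known. The alternatives tried were another pseudocount, values raised to the bound, median centring, an intensity trend, the replicate block, a filter on dim probes, the mean over a gene's probes and each array left out.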

Additional observations from a re-analysis of the deposited data

How the results depend on the processing

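The count of constitutive proteasome genes called stayed at 0 in every comparison and under every alternative run, with 1 exception: without the second L929 IFNβ array 1 gene, Psma6, was called in L929 and in the average over the lines (range 0 to 1), and its probe is under the background bound. The replicate block called 0 of these genes. With it 0, 0, 8, 0, 2, 1 and 3 of the 31 had an unadjusted p under 0.05 in limma (L929, L929IRF8, lines untreated, lines after IFNβ, interaction, averaged IFNβ, averaged lines), against 0, 0, 2, 0, 0, 1 and 1 without it. The share of all genes was not computed with the block, so the counts with it have no background. The differences within the catalytic pairs (1.85, 1.98 and 2.23 for Psmb8, Psmb9 and Psmb10 over their counterparts) had an exact p of 0.125 when labels were exchanged only within line and replicate number, which cannot give a smaller one. They were 1.72, 1.63 and 2.2 with a pseudocount of 32 and ranged from 1.54 to 2.1, 1.89 to 2.11 and 2.05 to 2.42 with 1 array left out; these settings were added after the data were seen. Deviations of same-numbered arrays correlated between groups with r = 0.479 to 0.56 over genes above background. The labels do not tie the numbers to a shared batch, so the block stayed an alternative. The main fit therefore counts differences between the numbers in its SE and intervals. The block took the probes called to 0 in the line comparisons and the interaction. Counts over all probes moved: with values raised to the bound they were 182, 170, 6 and 8 (L929, L929IRF8, lines after IFNβ, interaction), and 348 and 8 for the averaged IFNβ and line effects. With an intensity trend they were 19 for the lines untreated, 19 after IFNβ, 11 for the interaction and 13 for the averaged lines. The pseudocount of 32 (lines untreated), centring (lines untreated, interaction, averaged lines) and the filter on dim probes (all line comparisons and the interaction) gave 0. Block and filter together, added after the data were seen, gave 678, 645, 0, 16, 0, 1400 and 6 in the order L929, L929IRF8, lines untreated, lines after IFNβ, interaction, averaged IFNβ, averaged lines.

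When any 1 array was left out, the probes called ranged from 217 to 469 in L929, 135 to 526 in L929IRF8, 0 to 264 and 0 to 266 between the lines untreated and after IFNβ, 0 to 142 for the interaction and 0 to 162 for the averaged lines. The median changes of the 31 genes ranged from -0.134 to 0.0255 in L929, -0.146 to 0.109 in L929IRF8, -0.133 to 0.0997 and -0.124 to 0.116 between the lines, -0.126 to 0.159 for the interaction, -0.11 to 0.0389 for the averaged IFNβ and -0.0995 to 0.0635 for the averaged line effect. In L929 and L929IRF8 the lowest median came without the treated array numbered 2 and the highest without the one numbered 1. Of 45 named values, 0 were called under any alternative, and the following changed sign. For IFNβ in L929 the ranges were -0.175 to 0.0256 (Psmb5), -0.0976 to 0.287 (Psmb6), -0.146 to 0.0732 (Psmb7) and -0.246 to 0.583 (Psmd9). In L929IRF8 they were -0.00316 to 0.272 (Psmb5), -0.0465 to 0.166 (Psmb7) and -0.301 to 0.919 (Psmc6). Between the untreated lines Psmc6 ran from -1.15 to 0.0715. After IFNβ the ranges were -0.125 to 0.15 (Psmb5), -0.269 to 0.116 (Psmb6), -0.367 to 0.13 (Psmd11), -0.243 to 0.035 (Psmd7), -0.0761 to 0.323 (Psmd5) and -0.109 to 0.612 (Psmc6). The interaction of Psmb7 ran from -0.0132 to 0.205. With the mean over a gene's probes, Psmb7 was 0.0327 in L929, -0.119 in L929IRF8, 0.0283 between the untreated lines and -0.152 in the interaction, Psmd6 was -0.0169 in L929IRF8 and Psmd7 0.016 in the interaction. The cause of these shifts was not tested.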
